A study of Mus musculus with 12 samples.

Results

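Skeletal muscle transcripts were followed in the back skin of mice through a list of 57 genes that encode the sarcomere, the excitation and calcium apparatus of the muscle fiber, and its energy supply. Members were taken by gene symbol, and all 57 were present among the 52636 genes counted. RNA-sequencing covered 12 skin libraries from BALB/c mice, 3 in each of 4 groups: control mice, control mice given rapamycin (control + RAPA), mice with rosacea-like inflammation induced by LL37 (LL37), and such mice given rapamycin (LL37 + RAPA). LL37 is the human cathelicidin peptide, which the methods describe as injected into the dermis of shaved back skin 2 times a day for 2 days in 8-week-old females. Rapamycin inhibits the growth kinase complex mTORC1, and the methods give it intraperitoneally at 4 mg/kg per day. In place of LL37 the methods describe injection of a control vehicle. Control and LL37 mice without rapamycin are likewise described as given vehicle. The 3 samples of a group are described as independent biological samples, and no mutant allele or transgene was involved. The methods describe no separation of the mouse skin into layers, so that a library would hold epidermis, dermis, fat and whatever muscle came with the tissue. The depth to which the skin was cut in each group is not given in the sources used here.

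Skeletal muscle fibers shorten when myosin in thick filaments pulls on actin in thin filaments, within sarcomeres bounded by Z-discs. An action potential carried by sodium channels is sensed in the membrane by the L-type calcium channel, which opens the ryanodine receptor of the sarcoplasmic reticulum. The released calcium binds troponin on the thin filament, and the SERCA1 pump takes it back up. Fast and slow fibers use different isoforms of many of these proteins. In mouse skin such fibers form the panniculus carnosus, a thin sheet beneath the dermal fat that consists mostly of fast fibers.

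Libraries held between 15734559 and 23271784 counts on genes. Levels are in CPM, a gene's counts scaled to the TMM-adjusted total of its library, and fold changes are fitted with the same scaling. A gene was called when its adjusted p was under 0.05 and its absolute log2 fold change over 1 (edgeR quasi-likelihood test on 17993 genes that passed a filter on low counts). Of the 57 genes, 54 passed that filter, and Myh7, Myl3 and Tnnc2 did not. The defining markers of skeletal muscle were abundant in skin without LL37, since Acta1, Ckm, Myh4, Tnnt3 and Atp2a1 summed to between 19865 and 39126 CPM in the 6 libraries. Of 7 genes used as heart markers, Nppa and Myl7 stayed at or below 0.217 CPM and Myh6 at or below 0.676 CPM in all 12 libraries, but others were present. Tnnt2 was at 21.0, 25.8 and 27.5 CPM in control and Myl4 at 19.4, 13.0 and 40.8. In LL37 vs control Myl4 was called lower (-2.92, edgeR adjusted p = 0.0058) and Nppb higher (3.91, edgeR adjusted p = 0.00078).

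The promoters of these genes are shown for 6 members, because the list moved together across the groups and these 6 span its behavior. Acta1 and Myh4 were among those with the most counts in skin without LL37, Myoz2 is a slow-fiber isoform, Ttn encodes the largest sarcomere protein, and Csrp3 and Ckmt2 lay near opposite ends of the list in LL37 + RAPA skin. Sequences are the 250 bases before the RefSeq start on GRCm38.p6, 5′ to 3′ on the gene's strand, where the most upstream start was taken for Csrp3, which has 2. They lie at chr8:123894776-123895025 (minus strand) for Acta1, chr11:67237562-67237811 (plus) for Myh4, chr3:123034988-123035237 (minus) for Myoz2, chr2:76982548-76982797 (minus) for Ttn, chr7:48848052-48848301 (minus) for Csrp3 and chr13:91876886-91877135 (minus) for Ckmt2. Capitals mark matches on either strand to the E-box CANNTG, the MCAT element CATTCC, the TATA box TATAAA, the MEF2 site or the CArG box.
Acta1: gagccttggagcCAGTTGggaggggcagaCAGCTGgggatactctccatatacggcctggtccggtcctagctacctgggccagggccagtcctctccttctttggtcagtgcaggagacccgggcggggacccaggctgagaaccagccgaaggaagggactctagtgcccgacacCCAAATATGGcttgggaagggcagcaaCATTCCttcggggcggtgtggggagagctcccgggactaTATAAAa
Myh4: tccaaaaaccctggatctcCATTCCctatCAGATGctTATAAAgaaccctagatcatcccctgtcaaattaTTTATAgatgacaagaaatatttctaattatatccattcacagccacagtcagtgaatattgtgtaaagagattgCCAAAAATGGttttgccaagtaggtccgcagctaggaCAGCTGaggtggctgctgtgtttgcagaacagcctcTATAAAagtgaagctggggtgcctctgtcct
Myoz2: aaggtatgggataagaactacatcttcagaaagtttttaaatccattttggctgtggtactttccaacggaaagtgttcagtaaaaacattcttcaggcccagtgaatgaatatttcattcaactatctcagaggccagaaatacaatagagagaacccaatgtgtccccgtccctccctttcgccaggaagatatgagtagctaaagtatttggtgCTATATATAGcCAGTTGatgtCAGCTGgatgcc
Ttn: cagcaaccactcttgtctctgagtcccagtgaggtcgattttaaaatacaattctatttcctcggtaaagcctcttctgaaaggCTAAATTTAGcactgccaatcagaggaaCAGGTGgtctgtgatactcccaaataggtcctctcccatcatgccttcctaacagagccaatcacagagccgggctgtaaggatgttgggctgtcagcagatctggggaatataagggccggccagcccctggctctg
Csrp3: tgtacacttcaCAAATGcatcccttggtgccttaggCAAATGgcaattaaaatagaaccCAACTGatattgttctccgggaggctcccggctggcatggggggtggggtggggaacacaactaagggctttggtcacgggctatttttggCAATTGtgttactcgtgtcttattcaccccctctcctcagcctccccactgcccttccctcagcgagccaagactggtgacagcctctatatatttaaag
Ckmt2: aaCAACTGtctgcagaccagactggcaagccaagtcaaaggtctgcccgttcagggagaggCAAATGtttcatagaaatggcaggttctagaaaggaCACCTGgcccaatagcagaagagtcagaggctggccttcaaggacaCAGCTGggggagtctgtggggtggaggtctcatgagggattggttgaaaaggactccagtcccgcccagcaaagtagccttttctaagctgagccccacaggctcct
The capitals in Acta1 include a CArG box from 73 to 64 bases before the start, and those in Myh4 a CArG box from 104 to 95 bases before it. A MEF2 match lies from 33 to 24 bases before the start in Myoz2 and from 166 to 157 in Ttn. Csrp3 and Ckmt2 hold 4 E-boxes each and none of the other letters searched. A promoter was found for 45 of the 57 genes, and 12 had no entry (Actn3, Tcap, Myoz1, Jph1, Myom2, Tnnt3, Cacng1, Sln, Trdn, Ampd1, Tnni2 and Neb). A MEF2 match was present in 4 of the 45 (8.89%: Clcn1, Myoz2, Ttn and Xirp2) and in 0.522% of 27025 promoters of the same length. The CArG box was present in 5 of the 45 (11.1%: Acta1, Ldb3, Myh4, Myl3 and Myom1) against 1.41%. The MCAT element was in 24.4% against 12.6%, the E-box in 84.4% against 66.1%, and the TATA box in 15.6% against 13%. These shares are a description of letters, not of bound sites.

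The list took 7.61, 5.40 and 6.88% of all counts in the 3 control libraries and 8.94, 5.53 and 6.10% in the control + RAPA libraries. It took 0.0553, 0.0719 and 0.203% in the LL37 libraries and 1.18, 0.581 and 0.860% in the LL37 + RAPA libraries. Thus no LL37 library reached any LL37 + RAPA library, and no LL37 + RAPA library reached any library without LL37 (two-sided exact permutation test, p = 0.1 for LL37 vs control, for LL37 vs LL37 + RAPA and for LL37 + RAPA vs either group without LL37, the smallest p that 3 against 3 allow). Control and control + RAPA libraries overlapped (exact permutation test, p = 0.9). In bulk skin, fewer muscle fibers in the sample and less of these RNAs per fiber cannot be told apart.

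**Figure D1:**
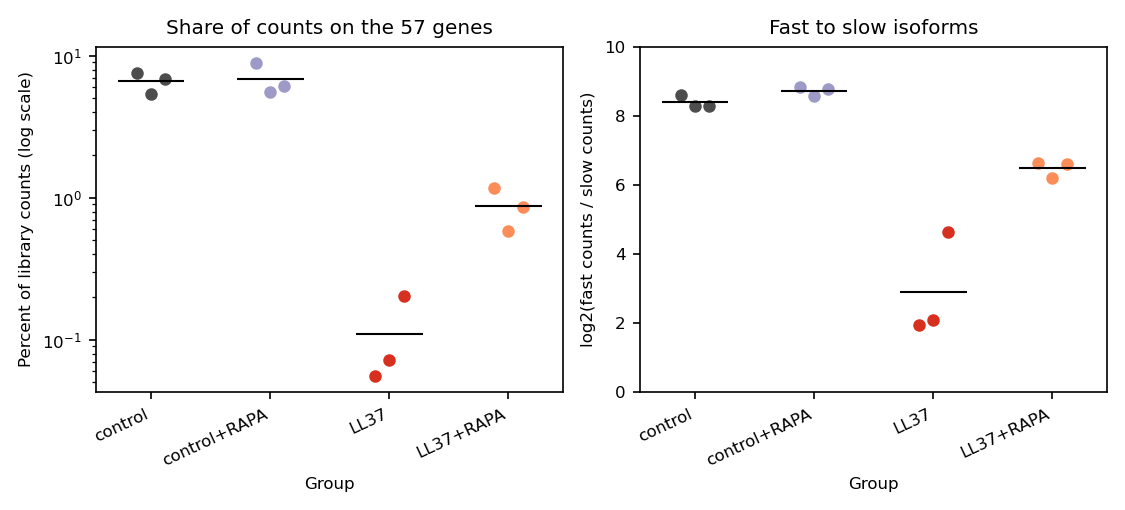
Left, percent of each library's counts that fall on the 57 muscle genes, on a log axis, by group. Right, log2 ratio of counts on fast-fiber to slow-fiber isoforms in each library. Points are libraries in the order of replicates 1 to 3 and lines are group means, and the LL37 libraries lie lowest in both panels, with replicate 3 above the other two.

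In LL37 vs control, 51 of the 54 tested genes were called lower and 1 higher, against 10.8% of all tested genes called lower and 8.73% called higher. The median log2 fold change was -6.56, a 94.6-fold difference, against -0.0049 over all tested genes. All LL37 libraries lay below all control libraries for 51 of the 54 genes, against 25.9% of all tested genes, and of the genes called lower only Tnnt1 overlapped. LL37 replicate 3 was the highest of the 3 LL37 libraries for 53 of the 54 genes. Without it the median log2 fold change was -9.24, and 45 of the 54 values moved by over 1.5-fold, whereas without LL37 replicate 1 or 2 it was -6.05 or -6.08.

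In LL37 vs LL37 + RAPA, 48 genes were lower in LL37 skin and none higher, against 5.80% of all tested genes called lower and 4.33% called higher, with a median log2 fold change of -3.53, or -6.06 without LL37 replicate 3. The count was 22 when the other 2 groups were kept out of the fit. In that fit 649 of 17234 tested genes were called lower, against 1044 of 17993 in the main fit. Libraries did not overlap for 48 genes, against 20.7% of all tested genes. In LL37 + RAPA vs control, 36 were lower and none higher, against 4.35% and 2.15% of all tested genes, with a median of -2.99. Its libraries did not overlap, downward, for 49 genes against 19.5%. In LL37 + RAPA vs control + RAPA, 38 were lower and none higher, against 4.32% and 4.07%, with a median of -3.08, and 48 genes did not overlap, against 21.8%. The pattern over groups was ordered for most genes, since in 46 of the 54 every LL37 library lay below every LL37 + RAPA library, which in turn lay below all 6 libraries without LL37, an order that 5.57% of all tested genes had. These comparisons share libraries, so they are not separate evidence of one another.

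RAPA without LL37 gave no call. In control + RAPA vs control none of the 54 genes was called by edgeR, none had an unadjusted p under 0.05, and none was called by DESeq2. Of all tested genes, edgeR called 0% and DESeq2 called 53 genes. The median log2 fold change was -0.03, with 29 genes below 0 and 25 above, and the values of single genes ranged from -1.297 to 1.02. Libraries did not overlap, downward, for 3 genes, against 7.42% of all tested genes.

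**Figure D2:**
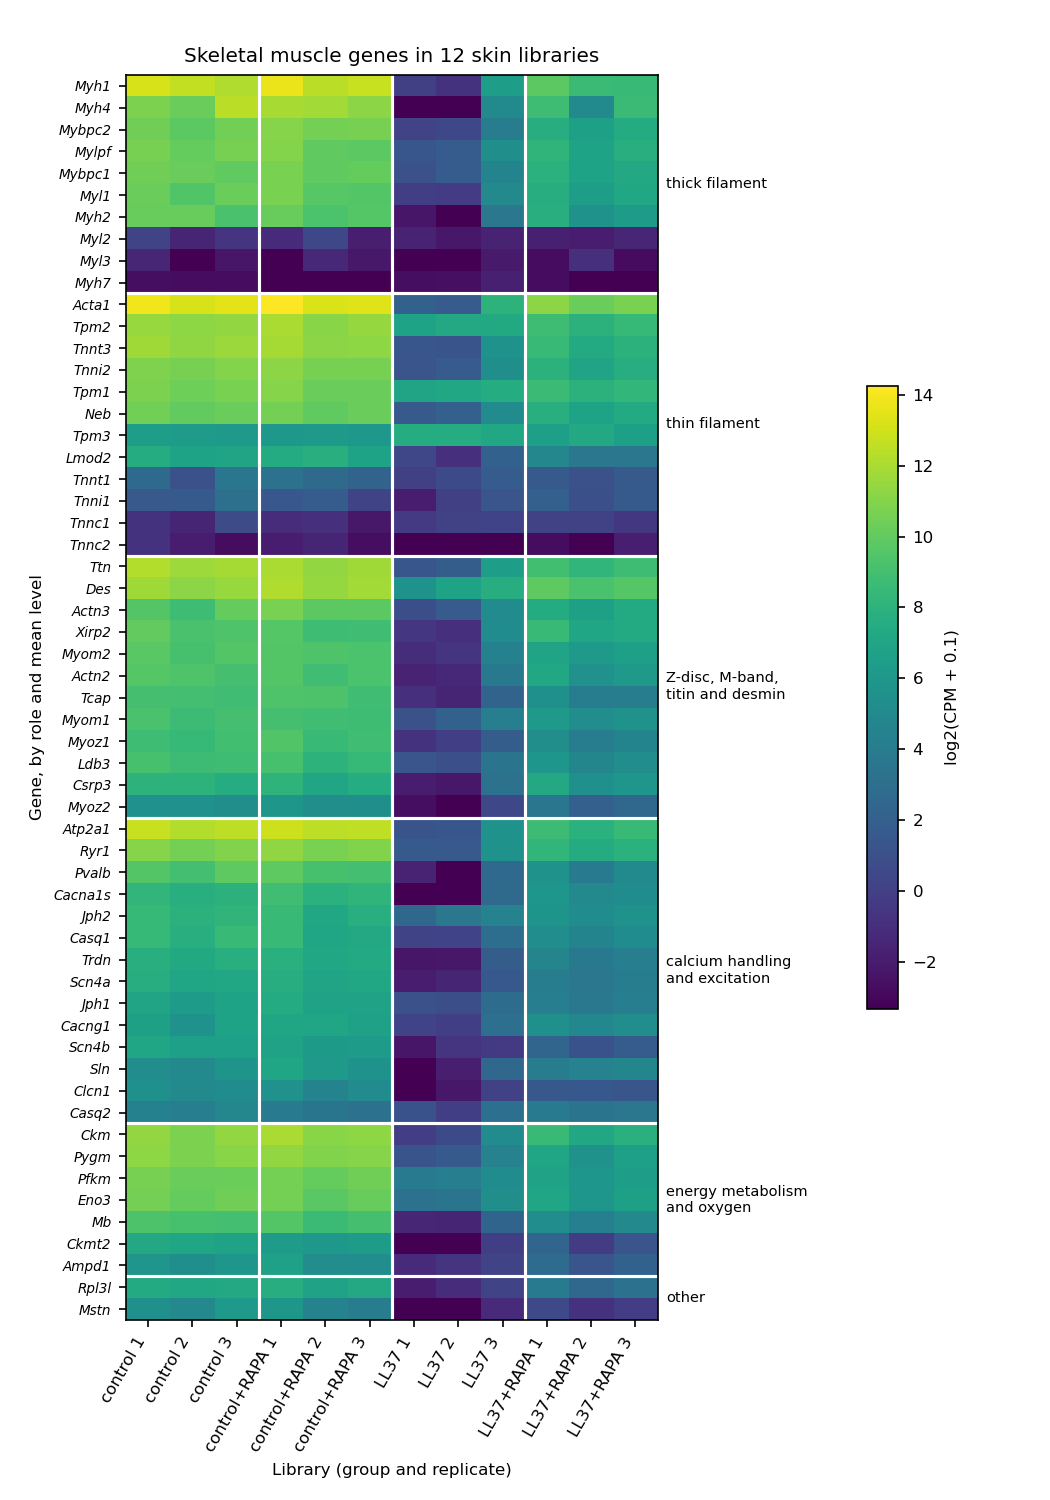
Level of each of the 57 genes as log2(CPM + 0.1) in the 12 libraries, with genes grouped by role and ordered by mean level and white lines between groups. The LL37 columns are darkest for most genes, although not for Tpm3, replicate 3 less so than replicates 1 and 2. The LL37 + RAPA columns lie between. Myl2, Myl3, Myh7, Tnnc1 and Tnnc2 are at or below 1.63 CPM in every column.

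Among thick filament genes, 7 of 8 tested were called lower in LL37 vs control, with a median log2 fold change of -7.26. Myh1, the fast myosin heavy chain IIx, was at 9400.2, 6247 and 4539 CPM in control, at 13717, 5412 and 7031 in control + RAPA, at 0.925, 0.490 and 85.7 in LL37 and at 909.8, 407 and 382 in LL37 + RAPA. It differed by -7.85 ± 1.61 (log2 fold change ± SE, n = 3 per group) in LL37 vs control (edgeR adjusted p = 0.0023), and by -13.15 without LL37 replicate 3. Its LL37 + RAPA libraries lay below all control libraries, but the difference of -3.57 ± 1.31 did not pass (edgeR adjusted p = 0.098). Myh4, the IIb heavy chain of the fastest fibers, was at 1770.4, 1222 and 5512 CPM in control and at 4009, 3591 and 2285 in control + RAPA. It had no counts in LL37 replicates 1 and 2, 32.7 CPM in replicate 3, and 451, 34.4 and 406 CPM in LL37 + RAPA. Myh2, the IIa heavy chain, was at 1139.7, 1139.6 and 601 CPM in control, at 0.109, 0 and 12.5 in LL37 and at 201, 52.2 and 83.0 in LL37 + RAPA. The exception was Myl2, the slow regulatory light chain, at 1.13, 0.256 and 0.527 CPM in control, at 0.218, 0.123 and 0.236 in LL37 and at 0.190, 0.164 and 0.270 in LL37 + RAPA, where the fold change in LL37 vs control did not pass (edgeR adjusted p = 0.11).

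Thin filament genes were more varied. Of 11 tested, 9 were called lower and 1 higher in LL37 vs control, with a median of -4.22. Acta1, skeletal alpha-actin, was at 14778, 9409 and 11951 CPM in control and 19333, 9856 and 10740.1 in control + RAPA. It was at 4.30, 3.13 and 261 CPM in LL37 and at 2321, 1176 and 1658 in LL37 + RAPA. LL37 replicate 3 therefore stood far above the other LL37 libraries, yet below every LL37 + RAPA library. The log2 fold change of Acta1 was -7.07 ± 1.48 in LL37 vs control (edgeR adjusted p = 0.0027), or -11.63 without that replicate. It was -4.26 ± 1.299 in LL37 vs LL37 + RAPA (edgeR adjusted p = 0.034), and -2.81 ± 1.21 in LL37 + RAPA vs control did not pass (edgeR adjusted p = 0.16).

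Tropomyosins wind along the thin filament, and their genes are also used by smooth muscle and by many other cells. Tpm2 was at 3004, 2422 and 2727 CPM in control, at 119, 153 and 166 in LL37 and at 449, 244 and 340.0 in LL37 + RAPA, so that the LL37 libraries were close together and well above 0. Its log2 fold change was -4.22 ± 0.29 in LL37 vs control (edgeR adjusted p = 1.64e-06) and -1.24 ± 0.26 in LL37 vs LL37 + RAPA (edgeR adjusted p = 0.0069). Tpm3 was the gene called higher. It was at 88.2, 77.8 and 73.4 CPM in control, at 67.1, 72.8 and 66.9 in control + RAPA, at 185, 187 and 148 in LL37, and at 98.4, 156 and 96.4 in LL37 + RAPA. The difference from control was 1.12 ± 0.17 in LL37 (edgeR adjusted p = 0.00044), with no overlap between the groups.

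All 12 genes of the Z-disc, the M-band, titin and desmin were called lower in LL37 vs control, with a median of -6.49, and all 12 were lower in LL37 than in LL37 + RAPA, with a median of -3.73. Ttn, the spring that spans the sarcomere from Z-disc to M-band, was at 4848, 3314 and 3669.7 CPM in control, at 2.504, 3.49 and 91.7 in LL37 and at 493, 305 and 443 in LL37 + RAPA. Des, the intermediate filament of all muscle types, kept more signal in LL37 skin, at 49.1, 115 and 194 CPM, against 3420.1, 2379 and 2928 in control and 934, 588 and 792 in LL37 + RAPA. Its log2 fold change was -4.61 ± 0.44 in LL37 vs control (edgeR adjusted p = 1.76e-05). Csrp3 encodes MLP, a Z-disc protein of striated muscle. Csrp3 was at 265, 258 and 189 CPM in control, at 0.163, 0.123 and 9.23 in LL37 and at 152, 45.4 and 59.4 in LL37 + RAPA. It was called lower in LL37 vs LL37 + RAPA, by -4.68 ± 0.96 (edgeR adjusted p = 0.0065), while -1.47 ± 0.79 in LL37 + RAPA vs control did not pass (edgeR adjusted p = 0.27).

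All 14 genes of calcium handling and excitation were called lower in LL37 vs control, with a median of -6.59, and all 14 in LL37 vs LL37 + RAPA, with a median of -3.34. Atp2a1, which encodes the SERCA1 pump, was at 6849, 4840.0 and 5629.8 CPM in control, at 2.23, 2.51 and 49.6 in LL37 and at 421, 240.4 and 359 in LL37 + RAPA. Of its exon bases, 21.9% are shared with Rabep2 on the other strand, which held 54.6 to 66.2 CPM in LL37 skin. Ryr1, the calcium release channel, was at 2149, 1509 and 1969 CPM in control, at 3.05, 2.88 and 51.1 in LL37 and at 309, 175 and 241 in LL37 + RAPA. Both were also lower in LL37 + RAPA than in control, Atp2a1 by -4.09 ± 0.94 (edgeR adjusted p = 0.013) and Ryr1 by -2.96 ± 0.85 (edgeR adjusted p = 0.038). In that comparison 11 of the 14 genes were called lower.

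All 7 genes of energy metabolism and oxygen storage were called lower in each of the 4 comparisons between a group with LL37 and another group. Ckm, the muscle creatine kinase that rebuilds ATP from phosphocreatine, was at 2727, 1777 and 2652 CPM in control, at 0.816, 1.47 and 34.6 in LL37 and at 363, 149 and 231 in LL37 + RAPA. Pygm, the muscle glycogen phosphorylase, was at 2488, 1769 and 2204 CPM in control, at 2.23, 3.003 and 22.3 in LL37 and at 130.0, 51.0 and 96.8 in LL37 + RAPA. Ckmt2, the mitochondrial creatine kinase of striated muscle, had a log2 fold change in LL37 vs control of -8.71 ± 0.77 (edgeR adjusted p = 9.48e-06), a fitted value that rests on replicate 3, since the other LL37 libraries had no counts. It was at 157, 136 and 112 CPM in control, at 85.2, 66.7 and 82.5 in control + RAPA, at 0, 0 and 0.848 in LL37 and at 5.22, 0.737 and 2.43 in LL37 + RAPA. Mitochondrial transcripts, as a share of all counts, were 2.54 to 2.69% in control, 1.27 to 1.37% in LL37 and 1.54 to 1.88% in LL37 + RAPA, and their part in the values of these genes was not tested.

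The remaining 2 genes have other roles. Rpl3l, a ribosomal protein that striated muscle uses in place of Rpl3, was at 169, 149 and 157 CPM in control, at 0.163, 0.368 and 1.13 in LL37 and at 14.4, 6.14 and 9.56 in LL37 + RAPA. Its log2 fold change of -8.07 ± 0.48 in LL37 vs control passed the test (edgeR adjusted p = 8.75e-07). Mstn, myostatin, a secreted inhibitor of muscle growth, was at 44.5, 31.4 and 73.1 CPM in control, at 0, 0 and 0.330 in LL37 and at 1.38, 0.491 and 0.811 in LL37 + RAPA. Its log2 fold change in LL37 + RAPA vs control was -5.81 ± 0.65 (edgeR adjusted p = 0.00015), and in LL37 vs LL37 + RAPA, at low counts, it did not pass (-2.76 ± 1.165, edgeR adjusted p = 0.10).

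The signal left in LL37 + RAPA skin was not the same fraction for each gene. In a measure added after the data were seen, energy metabolism was set against the contractile class, which joins thick filament, thin filament and Z-disc genes. The mean log2 CPM of the first minus the second was 0.59, 0.68 and 0.44 in control and 0.53, 0.28 and 0.68 in control + RAPA. It was -0.98, -1.30 and -0.96 in LL37 + RAPA and -0.39, -0.21 and -1.03 in LL37. The LL37 + RAPA libraries lay below all 6 libraries without LL37 (exact permutation test, two-sided, p = 0.1 against either group, the smallest possible), and without Tpm1, Tpm2, Tpm3 and Des, which other skin cells also use, the difference from control was -1.52 in place of -1.65. Against LL37 the values overlapped (exact permutation test, p = 0.3), but without those 4 genes LL37 + RAPA lay below LL37, by 0.98 on average (exact permutation test, p = 0.1). Those values were 0.50, 0.73 and -0.57 in LL37 and -0.71, -0.93 and -0.65 in LL37 + RAPA, so that LL37 replicate 3 lay close to LL37 + RAPA. In LL37 replicates 1 and 2, counts of energy metabolism genes ran from 0 for Ckmt2 to 273 and 292 for Pfkm. The log2 values of the lowest genes there depend on the prior count. In the fits, the median log2 fold change in LL37 + RAPA vs control was -3.94 for energy metabolism, -3.08 for calcium handling and -2.90 for the contractile class, of which 16 of 31 were called lower.

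By single genes, the level in LL37 + RAPA replicates 1, 2 and 3 was 13.8, 6.58 and 10.7% of the control + RAPA mean for Tnni2. It was 77.9, 23.3 and 30.5% for Csrp3 but 6.68, 0.943 and 3.12% for Ckmt2 and 3.92, 1.40 and 2.31% for Mstn. Replicate 1 was the highest of the 3 for 49 of the 54 genes and replicate 2 the lowest for 48. After their values were seen, 9 genes were set aside. These were Tpm1, Tpm2, Tpm3 and Des, which other skin cells also use, and Myl2, Tnnc1, Tnnt1, Tnni1 and Casq2, which had fewer counts in control than the rest. In LL37 replicate 3 itself, Casq2, Tnnt1 and Tnni1 had 175, 70 and 50 counts, while Mstn, Scn4b and Ckmt2, which were kept, had 7, 15 and 18. The order of the other 45, a set thus chosen with its values known, was also compared with that in LL37 replicate 3. Between the level in LL37 replicate 3 relative to control and the mean level in LL37 + RAPA relative to control + RAPA, which share no library, Pearson's r of the log2 values was 0.824 and Spearman's rho 0.796 across the 45 genes, which are not independent replicates. Csrp3 ranked 7 of 45 by level left in LL37 replicate 3 and 1, 3 and 3 in the LL37 + RAPA libraries, whereas Mstn ranked 43 and then 45, 43 and 45. Among genes outside the rule for naming, chosen here after their values were seen, Xirp2, Sln and Cacng1 ranked between 1 and 9 in these 4 libraries, and Scn4b between 41 and 44.

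**Figure D3:**
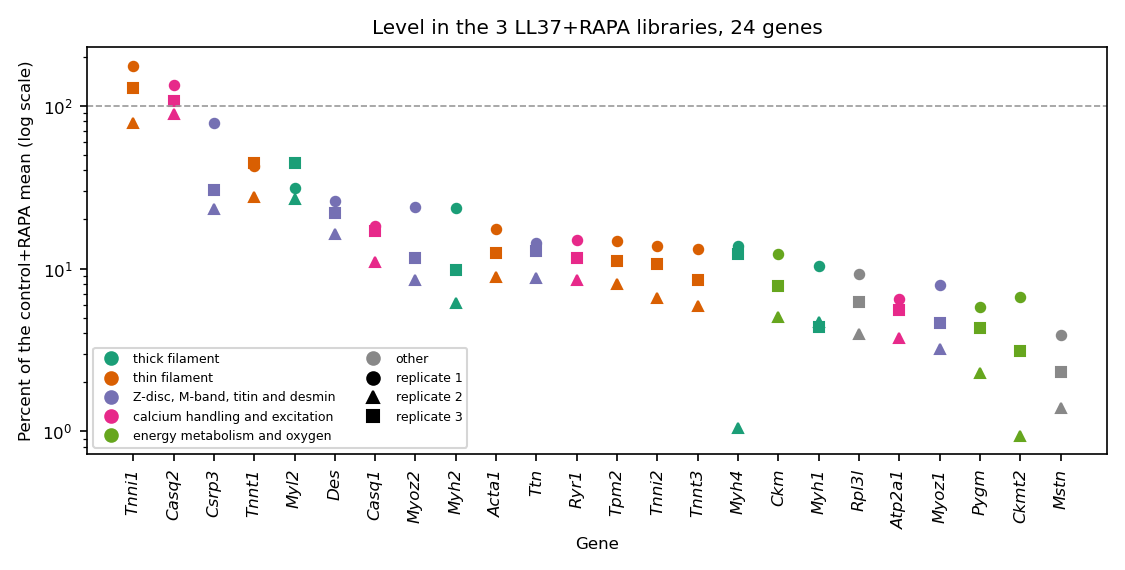
Level of 24 genes in each LL37 + RAPA library as percent of the control + RAPA mean, on a log axis, with genes ordered by their mean, colors for roles and symbols for replicates. Tpm3 (143, 227 and 140%) and Tnnc1 (318, 327 and 202%) were left out of the plot. The dashed line marks 100%, and Tnni1 and Casq2 lie around it, while Csrp3 is at 77.9, 23.3 and 30.5%, and Pygm, Ckmt2 and Mstn are at the low end.

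LL37 skin with and without RAPA can also be set beside its own control without a shared library. Of the 54 genes, 38 were called lower both in LL37 vs control and in LL37 + RAPA vs control + RAPA, which is all of the 38 in the second comparison and 38 of the 51 in the first, against 3.98% of all tested genes called lower in both. The log2 fold change was lower without RAPA than with it for 53 genes, against 50.8% of all tested genes. The difference between the fold changes themselves, fitted as an interaction, was called for 13 genes, all higher, against 1.73% of all tested genes called higher and 0.650% called lower, and 49 had an unadjusted p under 0.05, against 22.5% of all tested genes. The median interaction was 3.54 on the log2 scale. This count depends on single libraries, since it was 48 without LL37 replicate 3, 0 without LL37 + RAPA replicate 1 or control + RAPA replicate 3, and between 1 and 7 without any other library. Over all tested genes the calls moved as well, with 312 of 17993 called higher in the main fit. They were 1271 of 18396 without LL37 replicate 3, 2 without LL37 + RAPA replicate 1 and 10 without control + RAPA replicate 3.

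**Figure D4:**
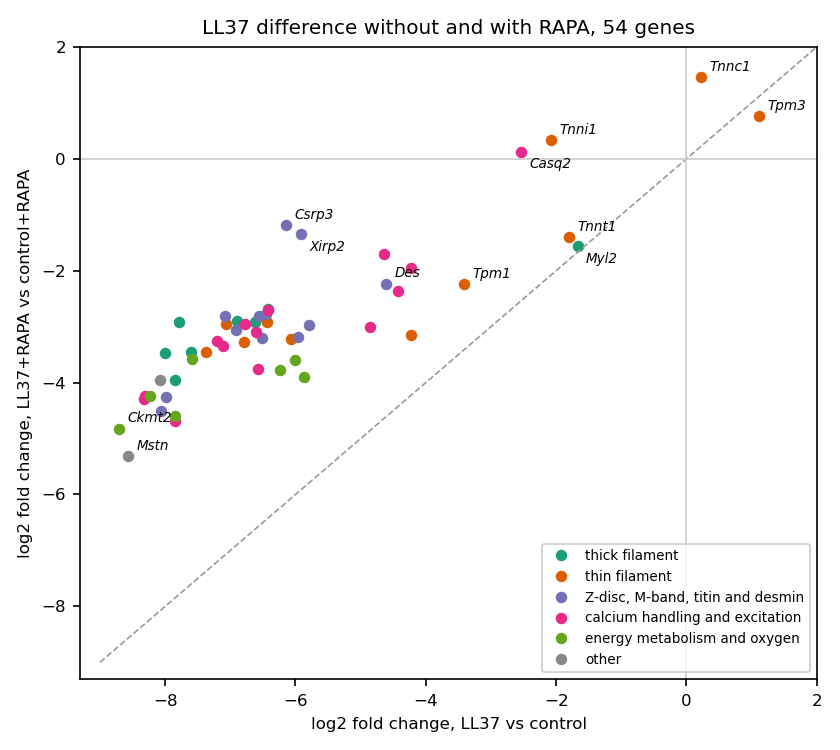
Log2 fold change of the 54 tested genes in LL37 vs control against LL37 + RAPA vs control + RAPA, which share no library, with colors for roles and a dashed line of equality. All but 1 gene lie above the line, Csrp3 and Xirp2 lie high for their x value, and Ckmt2 and Mstn are at the lower left.

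Fast and slow isoforms were compared next. Slow isoforms differed widely in level. In skin without LL37, Myoz2 ranged from 39.9 to 64.0 CPM and Casq2 from 9.09 to 27.3. Myh7, the slow heavy chain, was at or below 0.188 CPM in all 12 libraries, Myl3 at or below 0.409 and Myl2 at or below 1.33. All 13 tested fast genes were called lower in LL37 vs control, with a median of -7.61, and 4 of 6 tested slow genes, with a median of -1.94. The log2 ratio of fast to slow counts was 8.59, 8.28 and 8.30 in control, 8.84, 8.58 and 8.78 in control + RAPA, 1.95, 2.08 and 4.62 in LL37, and 6.65, 6.21 and 6.60 in LL37 + RAPA. LL37 libraries lay below LL37 + RAPA libraries and these below all others (exact permutation test, p = 0.1, the smallest possible), while control and control + RAPA overlapped (exact permutation test, p = 0.2). Ratios in LL37 replicates 1 and 2 rest on few counts of either class. Myoz2 held the most slow counts in each control library (889, 903 and 758), but 1 and 0 in LL37 replicates 1 and 2. Slow counts in those 2 libraries came mostly from Casq2, Tnnt1, Tnnc1 and Tnni1, all among the genes set aside above. In LL37 replicate 3 Casq2 held 175 counts against 28 on Myoz2, and in LL37 + RAPA 335, 257 and 281 against 244, 102 and 126. In control Casq2 held 387, 361 and 518. The slow class in all LL37 and LL37 + RAPA libraries is thus weighted to other genes than in control. The ratio was not run without the genes set aside, and how far its order over groups reflects this was not tested.

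The slow class did not behave as one. In the troponin T pair, which anchors troponin to tropomyosin, fast Tnnt3 was at 3446, 2618 and 3064 CPM in control, at 2.56, 2.27 and 49.8 in LL37 and at 377, 169 and 245 in LL37 + RAPA. Slow Tnnt1 was at 6.31, 1.95 and 11.96 CPM in control, at 0.925, 1.47 and 3.30 in LL37 and at 2.99, 1.92 and 3.11 in LL37 + RAPA. The log2 fold change in LL37 vs control was -7.37 ± 1.11 for Tnnt3 (edgeR adjusted p = 0.00036) and -1.80 ± 0.59 for Tnnt1 (edgeR adjusted p = 0.029).

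In the inhibitory troponin pair, fast Tnni2 was at 1853, 1603 and 2024 CPM in control, at 2.34, 3.13 and 43.5 in LL37 and at 254, 121 and 197 in LL37 + RAPA. Slow Tnni1 was at 2.97, 2.97 and 8.96 CPM in control, at 0.163, 0.919 and 2.36 in LL37 and at 4.18, 1.84 and 3.02 in LL37 + RAPA, where it overlapped with control. The calcium-binding pair gave no usable comparison. Slow Tnnc1 ranged from 0.115 to 1.63 CPM over all libraries and was not called (0.23 ± 0.58 in LL37 vs control, edgeR adjusted p = 0.78). Fast Tnnc2 was at or below 0.485 CPM in all libraries, far below its fast partners, and 74% of its exon bases are shared with Ube2c on the other strand, which held 6.03 to 35.5 CPM. The kit was not strand-specific and how the counting treated such reads was not stated, so that the Tnnc2 values are uncertain.

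Calsequestrins store calcium in the sarcoplasmic reticulum. Fast Casq1 was at 340.2, 219 and 362 CPM in control, at 1.09, 1.04 and 8.20 in LL37 and at 39.8, 23.7 and 37.1 in LL37 + RAPA. Casq2, of slow and cardiac muscle, was at 20.9, 18.5 and 27.3 CPM in control, at 15.3, 11.3 and 9.09 in control + RAPA, at 2.07, 0.858 and 8.24 in LL37 and at 15.9, 10.5 and 12.7 in LL37 + RAPA. Casq2 was lower in LL37 vs control, by -2.54 ± 0.55 (edgeR adjusted p = 0.0034), and in LL37 vs LL37 + RAPA, by -1.77 ± 0.55 (edgeR adjusted p = 0.037). In LL37 + RAPA vs control + RAPA its difference was 0.13 ± 0.52 (edgeR adjusted p = 0.90), against -2.70 ± 0.60 for Casq1 (edgeR adjusted p = 0.0090).

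The myozenins bind alpha-actinin at the Z-disc, and here the slow isoform followed the fast one. Myoz1, of fast fibers, was at 449.5, 351 and 487 CPM in control, at 0.490, 0.858 and 3.53 in LL37 and at 41.2, 16.7 and 24.3 in LL37 + RAPA. Myoz2, of slow and cardiac muscle, was at 47.9, 46.3 and 39.9 CPM in control, at 0.0544, 0 and 1.32 in LL37 and at 11.6, 4.18 and 5.68 in LL37 + RAPA. Both were called lower in LL37 vs control, by -7.98 ± 0.62 (edgeR adjusted p = 4.41e-06) and -6.45 ± 0.69 (edgeR adjusted p = 3.62e-05).

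Among adult myosin heavy chains, counted per kilobase, Myh4 made up 15.2, 15.1 and 53.4% in control and 22.3, 38.9 and 23.8% in control + RAPA. It made up 26.3% in LL37 replicate 3 and 30.4, 7.42 and 48.5% in LL37 + RAPA. LL37 replicates 1 and 2 held only 20 and 9 counts on the 4 genes, none of them on Myh4, so that by counting error alone a plain share of up to 16.8 and 33.6% is allowed (exact 95% binomial interval). Libraries of one group thus differed as widely as the groups did, and no comparison reached the smallest possible p. Myh1, Myh2 and Myh4 lie side by side on chromosome 11 and are near-identical over long stretches, so that the split of reads among them is uncertain, and Myh1 also overlaps the antisense gene Myhas in 8.11% of its exon bases. Myh2 stayed between 4.91 and 11.9% in the 10 libraries with more than 20 counts.

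**Figure D5:**
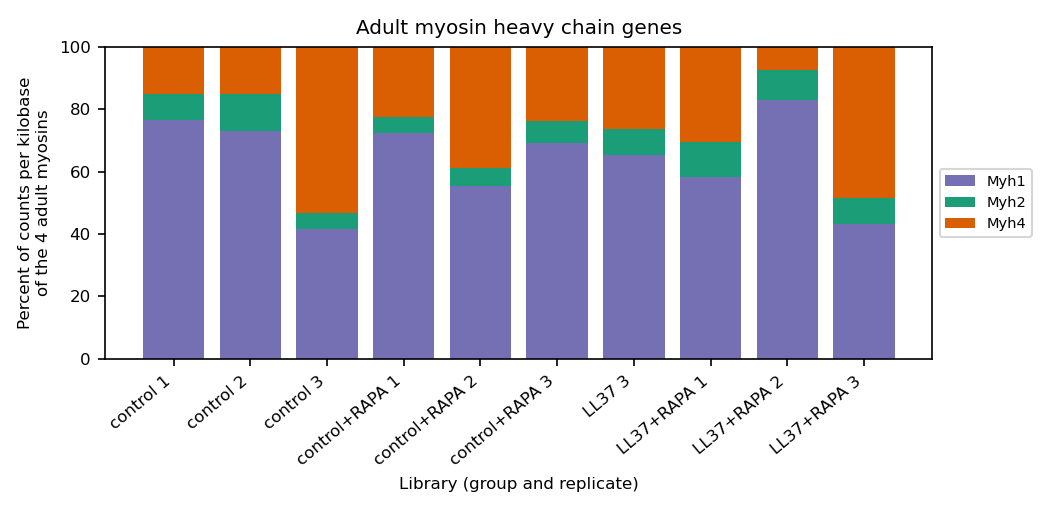
Share of Myh1, Myh2 and Myh4 in the counts per kilobase of the 4 adult myosin heavy chain genes, for the 10 libraries with enough counts. Myh7 is too low to be visible, and control replicate 3 and LL37 + RAPA replicate 3 carry the most Myh4, at 53.4 and 48.5%.

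Other skeletal muscle genes that are not on the list behaved alike. Of 46 such genes, 44 were called lower in LL37 vs control, 36 in LL37 vs LL37 + RAPA, 38 in LL37 + RAPA vs control and 38 in LL37 + RAPA vs control + RAPA, with none higher, and their medians were -5.47, -2.41, -2.94 and -2.78. Genes of other cells in the deep skin moved with some groups. Of 8 adipocyte markers, 7 were lower in LL37 than in control, summing to 452 to 902 CPM against 1475 to 2661, whereas in LL37 + RAPA they summed to 2771 to 2972 CPM and none was lower than in control. Of 5 Schwann cell markers, 3 were lower in LL37 than in control and none in LL37 + RAPA.

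Of 8 smooth muscle markers, 2 were lower in LL37 than in control (Synpo2 and Lmod1), while Acta2, its actin, was at 108 to 173 CPM in control and 103 to 185 in LL37. Of 6 genes of muscle stem cells and differentiating myoblasts, 5 were tested, and 3 of these were lower in LL37 and 1 in LL37 + RAPA than in control. The myoblast factor Myog was at 40.9, 19.1 and 57.6 CPM in control, at 1.52, 2.45 and 21.9 in LL37 and at 39.9, 35.7 and 44.4 in LL37 + RAPA, so that the last overlapped with control. Of 6 keratinocyte markers, none was lower in LL37 and 1 was higher. Of 5 neutrophil markers tested, all 5 were higher in LL37, summing with a gene that was not tested to between 247 and 2422 CPM against 9.59 to 72.0 in control. In LL37 + RAPA the sum was 81.6 to 344 CPM, which overlaps with LL37. Replicate 3 was the lowest LL37 library for each of these genes, as for S100a8 at 469, 686 and 55.4 CPM. Fibroblast and endothelial markers gave no call in LL37 vs control. The part of any of these cell types in the muscle values was not tested.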

How the data were processed

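RNA was extracted with Trizol from flash-frozen skin and sequenced as 100-base paired-end reads on an Illumina HiSeq instrument from libraries of a TruSeq kit that does not mark strand. The authors deposited raw read counts per Ensembl gene, with no normalization. The submitters' processing notes list HISAT2 2.0.5, StringTie 1.3.3b, featureCounts 1.5.0-p3, DESeq2 1.16.1 and the build mm10, whereas the study's methods name HTSeq as the counter. The annotation release and the strand setting are not given in the sources used here. How reads shared by paralogs were counted is also not given.

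Gene names, exon lengths and overlaps came from GENCODE M21 (52403 of 52636 IDs named), and promoters from RefSeq on GRCm38.p6. Counts of all 12 libraries were fitted together by group with edgeR 4.0.16 in R 4.3.3 (TMM scaling, filterByExpr, quasi-likelihood F-test), and p-values were adjusted over 17993 genes by Benjamini-Hochberg. SE is the fold change divided by the root of F. Class means use log2 CPM with a prior of 2 counts, and the fast to slow ratio adds 0.5 counts. Single values were compared by two-sided exact permutation tests. Intervals cover counting error only, and 3 counts correspond to 0.123 to 0.184 CPM. Libraries were grouped by their labels. The named genes were the 2 most abundant of each role class, the fast and slow partners, the 2 largest changes in each direction per comparison, and genes not called or not tested. The 57 genes and all lists were chosen with earlier results of these data known. Alternatives were other scalings and filters, DESeq2 1.42.0, no fold limit, fits restricted to the groups being compared, blocking on replicate numbers, and omission of single libraries.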

Additional observations from a re-analysis of the deposited data

Results flagged for a closer look

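The effect of RAPA differed between LL37 and control skin, by the edgeR interaction term, for 13 of the 54 tested genes. On the log2 scale the interaction was 4.01 for Mybpc1, 3.73 for Myoz1, 3.67 for Myoz2, 3.31 for Ldb3, 4.96 for Csrp3, 2.38 for Des, 1.96 for Pfkm, 3.73 for Casq1, 3.95 for Trdn, 3.99 for Mb, 3.76 for Scn4a, 3.17 for Scn4b and 4.12 for Rpl3l. Their adjusted p ranged from 0.0171 to 0.0496 (edgeR quasi-likelihood test). In each case RAPA went with a higher level in LL37 skin, while in control skin none of the 13 was called. The count was 0 to 48 genes when single libraries were left out, and 48 without LL37 replicate 3. Over all tested genes, the number called higher ran from 2 to 1271 under the same omissions. Groups of 3 libraries were not searched for single outlying values.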

How the results depend on the processing

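Counts of called genes kept their direction in LL37 vs control (49 to 52 with any 1 library left out, 47 by DESeq2), LL37 + RAPA vs control (25 to 47), LL37 + RAPA vs control + RAPA (27 to 47) and control + RAPA vs control (0 under every alternative, DESeq2 included). In LL37 vs LL37 + RAPA the count of 48 was 38 to 49 with a library left out and 22 when other groups were kept out of the fit. The interaction count of 13 was 40 with a filter of 1 count in total, 30 by DESeq2, and 0 to 48 with a library left out. Over all tested genes, 312 of 17993 were called higher in the main fit, 627 of 31949 with that filter and 729 of 17993 by DESeq2. The cause was not tested. With the replicate number as a block the interaction count was 6, against 153 called higher over all tested genes. The block changed no other count of called members by over 1.5 times. No source ties equal replicate numbers to each other, and deviations of same-numbered libraries correlated between -0.188 and 0.263. The share of counts and the fast to slow ratio kept their direction under each alternative run, as did energy metabolism minus contractile, which was added after the data were seen. No alternative took the slow genes set aside above out of the fast to slow ratio. With scaling by library size only, the median of all tested genes shifted by up to 0.18 (LL37 + RAPA vs control + RAPA). Calcium handling minus contractile, added likewise, was -0.0085 in LL37 vs LL37 + RAPA but 0.44 without Tpm1, Tpm2, Tpm3 and Des and -0.13 to 0.068 with a library left out, and in LL37 vs control it was -0.37 but 0.21 without those genes. The Myh4 share differed by -8.996 to 13.6 percentage points in LL37 + RAPA vs control and by -9.41 to 11.1 in LL37 + RAPA vs control + RAPA with a library left out. Of 2072 values of named genes under alternatives, 1889 kept their direction and call. With a library left out, Tnni1 in LL37 + RAPA vs control ran from -1.03 to 0.013. Tnnc1 ran from -0.21 to 1.3 in LL37 vs control, from -0.13 to 0.22 in LL37 vs LL37 + RAPA and from -0.27 to 1.24 in LL37 + RAPA vs control. Casq2 in LL37 + RAPA vs control + RAPA ran from -0.039 to 0.37 and Myl2 in LL37 vs LL37 + RAPA from -0.26 to 0.14. In LL37 replicates 1 and 2, 8 and 9 of the 57 genes had no counts, so that small levels there were not resolved at this depth.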

Other observations

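Of 2 developmental myosin heavy chains, singled out after their values were seen, 1 did not follow the adult genes in LL37 replicate 3. Myh3, the embryonic heavy chain, was at 1.02, 2.31 and 6.64 CPM in control, at 1.08, 0.889 and 1.09 in control + RAPA, at 0.109, 0.0613 and 9.56 in LL37 and at 0.712, 0.860 and 0.856 in LL37 + RAPA. LL37 replicate 3 thus held more Myh3 than any control library, while its Myh1 level of 85.7 CPM was below all of them. Myh8, the perinatal heavy chain, was lower in that library than in control, and was at 35.4, 29.3 and 26.8 CPM in control, at 0, 0 and 3.82 in LL37 and at 14.0, 5.40 and 6.90 in LL37 + RAPA. The heavy chain genes are close copies, and the split of reads among them is uncertain.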
